A study of Mus musculus with 5 samples.

Results

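The genes described here act at the opening of the breakdown of leucine, isoleucine and valine, the branched-chain amino acids (BCAA), and bring these into the mitochondrion. They were the 2 transaminases Bcat1 and Bcat2, the mitochondrial carrier Slc25a44, the subunit genes Bckdha, Bckdhb, Dbt and Dld of the branched-chain ketoacid dehydrogenase complex, its kinase Bckdk and phosphatase Ppm1k, and the transcription factor Klf15. Members were chosen by name, and every region of the deposited table whose gene list held such a name was taken. This gave 10 genes of 18161 with a region and 28 regions of 30965. Propionylation of a lysine in the tail of histone H3 (H3K23Pr) had been profiled by chromatin immunoprecipitation and sequencing with an anti-H3K23-propionyl antibody in the heart of 12-week-old C57Bl/6J male mice. The 4 groups were mice on a BCAA-control diet, which holds all essential amino acids, after sham surgery or after transverse aortic constriction (TAC, which narrows the aorta and raises the pressure the heart must pump against), and mice on a BCAA-free diet after sham or TAC. Diets began 4 days before surgery and went on for the 2 weeks until the hearts were taken, and no genetic change is labelled in any group. There was 1 library per group, pooled from 3 hearts. Differences are therefore between single pools, with no replicate check and no p-value. Titles set the groups here, and in 3 libraries the treatment field says otherwise.

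Transamination by the branched-chain aminotransferases turns BCAA into ketoacids, and the dehydrogenase complex then removes a carboxyl group and makes acyl-CoA. That step is irreversible and commits the carbon skeleton to oxidation, which for valine and isoleucine runs through propionyl-CoA, the donor of the propionyl group that the antibody recognises on histones. The complex is switched off when the kinase phosphorylates its alpha subunit and on when the phosphatase removes the phosphate. In the mouse heart Klf15 is known to promote BCAA breakdown genes.

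Signal is the average coverage per base of a region as the authors deposited it, so levels can be set side by side across regions of different length. The tags behind a library's value at these regions ran from 7 to 4215 and had medians of 226.5, 259, 239 and 265 in the control sham, control TAC, BCAA-free sham and BCAA-free TAC libraries; library values are given in this order throughout. A fold is the plain ratio of 2 libraries, and the 95% interval after it covers counting error alone. A fold of 1.5 was used to call a region higher or lower. Signal over genes was not level between libraries: the median log2 ratio over all genes, each at the region nearest to its start, was 0.25 for TAC against sham on the control diet, -0.04 for TAC over sham on the BCAA-free diet, 0.00425 for the diets in sham and -0.29 for the diets after TAC.

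The 28 regions were 999 to 21799 bp long. Of these 11 held a promoter and a CpG island, 6 a promoter alone, 1 a CpG island alone and 10 neither, and 19 had a mean signal at or above the median of all regions. The number called as enriched by the authors was 20 in the control sham library, 23 in control TAC, 26 in BCAA-free sham and 17 in BCAA-free TAC. As shares these were 71.4%, 82.1%, 92.9% and 60.7%, against 76.7%, 83.1%, 76.1% and 73.6% of all regions. In 14 of the 28, or 50%, a call was made in all 4 libraries, against 58.3% of all regions. The table's regions cover 66.2% of the annotated span of Klf15, 66.1% of Bckdha and 65.9% of Slc25a44, but 5.23% of Dbt, 11.1% of Bcat1, 11.4% of Dld and 19.0% of the long Bckdhb gene.

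Promoters are shown for Bckdhb, Dld, Bcat1, Ppm1k and Klf15, from RefSeq on GRCm38.p6, whose chromosome coordinates are those of mm10. At Ppm1k and Klf15 the regions that differed more lie upstream of the printed window, and the second Bcat1 start is not printed. Of the 10 genes 8 matched the RefSeq promoter table; Dbt and Slc25a44 are named only. Each sequence runs 5′ to 3′ on the gene's strand from 250 bases before the start to 50 after it. Capitals mark matches on either strand to 5 short motifs. The GC box was searched as GGGCGG. The motif of Klf factors was searched as CCACCC. For the estrogen-related receptors the letters were AAGGTCA. For the glucocorticoid receptor they were TGTTCT, and for the TATA box TATAAA. No overlap between different motifs was removed. Among 32817 promoters of this length 35.6%, 31.5%, 4.72%, 19.0% and 13.6% hold these motifs in the same order. No capitals in a sequence means only that these letters are not in that window. The first 2 are both annotated starts of Bckdhb, chr9:83924887-83925186 and chr9:83948531-83948830 on the plus strand, shown because the deposited table measures distance from the downstream one.
Bckdhb, upstream start: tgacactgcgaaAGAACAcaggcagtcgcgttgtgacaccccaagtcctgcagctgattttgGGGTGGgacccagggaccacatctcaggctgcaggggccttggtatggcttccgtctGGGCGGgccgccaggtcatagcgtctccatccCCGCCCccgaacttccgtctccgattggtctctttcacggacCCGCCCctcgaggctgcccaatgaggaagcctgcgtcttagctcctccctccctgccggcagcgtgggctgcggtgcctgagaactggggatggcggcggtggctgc
Bckdhb, downstream start: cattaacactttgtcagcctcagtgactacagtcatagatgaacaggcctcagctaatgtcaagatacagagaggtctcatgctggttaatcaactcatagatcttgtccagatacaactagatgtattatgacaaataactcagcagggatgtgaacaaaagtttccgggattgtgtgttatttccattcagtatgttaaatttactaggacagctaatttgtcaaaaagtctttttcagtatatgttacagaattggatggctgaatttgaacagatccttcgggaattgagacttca
Dld (chr12:31351422-31351721, minus strand): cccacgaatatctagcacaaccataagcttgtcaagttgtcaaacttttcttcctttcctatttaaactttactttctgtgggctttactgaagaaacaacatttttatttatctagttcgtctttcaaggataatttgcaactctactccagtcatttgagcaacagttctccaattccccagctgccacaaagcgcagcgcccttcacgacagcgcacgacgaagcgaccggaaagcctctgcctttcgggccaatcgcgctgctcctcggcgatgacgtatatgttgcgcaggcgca
Bcat1, upstream start (chr6:145076108-145076407, minus strand): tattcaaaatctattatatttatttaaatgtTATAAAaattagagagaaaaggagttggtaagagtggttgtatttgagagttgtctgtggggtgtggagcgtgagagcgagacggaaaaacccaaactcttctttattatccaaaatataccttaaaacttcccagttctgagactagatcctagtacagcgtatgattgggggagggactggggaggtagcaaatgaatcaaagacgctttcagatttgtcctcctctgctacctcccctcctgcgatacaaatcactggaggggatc
Ppm1k (chr6:57535438-57535737, minus strand): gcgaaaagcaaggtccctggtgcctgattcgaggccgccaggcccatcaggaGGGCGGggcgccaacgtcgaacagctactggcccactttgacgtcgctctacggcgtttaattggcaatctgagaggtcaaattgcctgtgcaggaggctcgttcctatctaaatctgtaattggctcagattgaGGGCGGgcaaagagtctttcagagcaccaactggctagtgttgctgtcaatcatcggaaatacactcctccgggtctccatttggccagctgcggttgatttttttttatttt
Klf15 (chr6:90462326-90462625, plus strand): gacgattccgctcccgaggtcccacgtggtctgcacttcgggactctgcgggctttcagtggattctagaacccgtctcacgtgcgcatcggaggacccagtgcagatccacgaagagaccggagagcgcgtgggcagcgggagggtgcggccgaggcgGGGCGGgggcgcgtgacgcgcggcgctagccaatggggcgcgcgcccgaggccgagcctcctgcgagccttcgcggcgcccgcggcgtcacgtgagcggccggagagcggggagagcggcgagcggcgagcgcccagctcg

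The upstream start of Bckdhb had 20 CpG dinucleotides in its 300 bases, 3 GC boxes, 1 Klf motif and 1 glucocorticoid receptor motif. The downstream start had 2 CpG and no match. Klf15 stood far above the rest with 47 CpG and 73.3% G and C, more CpG than 98.6% of promoters, whose median was 7. Dld had 18 CpG and no match, Ppm1k 16 CpG and 2 GC boxes, and Bcat1 6 CpG with 1 TATA box that is not next to its start.

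**Figure D1:**
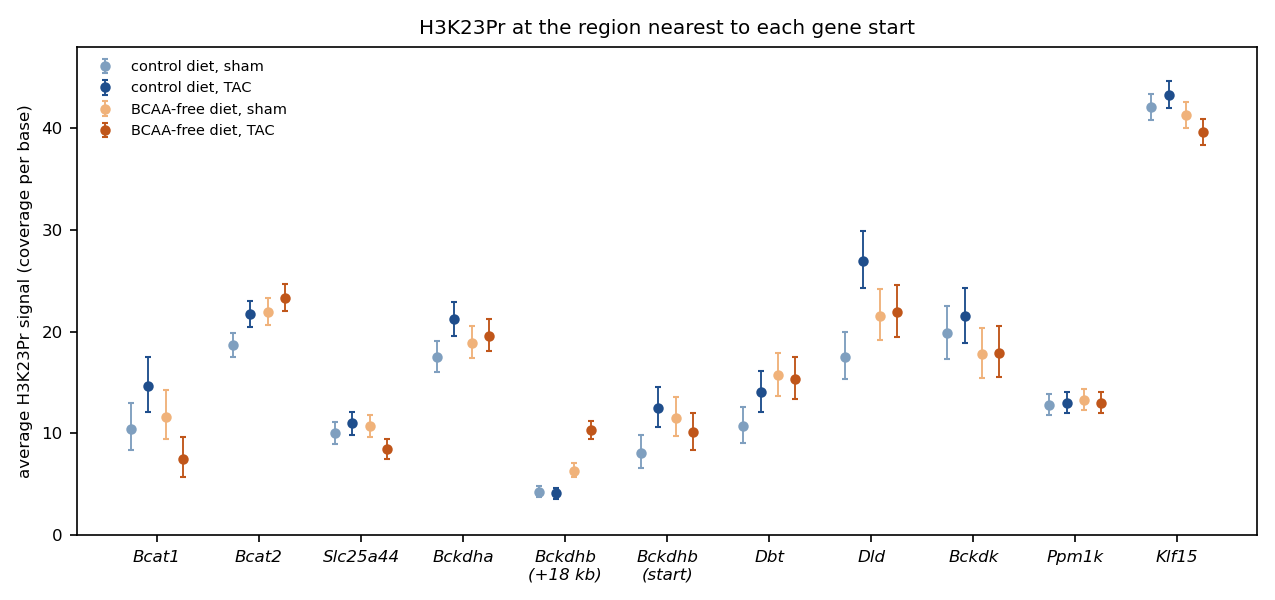
Average H3K23Pr signal (coverage per base, linear axis from 0) in the 4 libraries at the region nearest to each gene's start, with Bckdhb also at its upstream annotated start; points are single pooled libraries and bars are exact 95% Poisson intervals of the tags. Klf15 lies near 40 in each library, Dld peaks in control TAC at 27, and Bcat1 is lowest in BCAA-free TAC at 7.46.

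Among the transaminases, Bcat2 encodes the mitochondrial enzyme of heart muscle. Its start lay in a region of chromosome 7 from 45565000 to 45576399 that covers both annotated starts and is shared with Hsd17b14 and 0610005C13Rik, with signals of 18.7, 21.7, 21.9 and 23.3. Control sham was the lowest library and BCAA-free TAC the highest. By peak signal, the highest coverage inside the region, the order differed, with values of 90, 127, 103 and 93. The diets after TAC therefore differed by 1.07-fold (0.989 to 1.17) on the average but by 1.37-fold in the opposite direction on the peak. A weaker region over the end of the gene, at 45588800 to 45593799 and centred 21146 bp from the start, had 9.31, 12.2, 9.11 and 8.85. It was 1.31-fold higher (1.09 to 1.58) in TAC than in sham on the control diet, the only library in which it was called.

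Bcat1 encodes the cytosolic transaminase. It had 4 regions, all inside the gene on chromosome 6, and the authors assigned none of them to another gene. In RefSeq the regions centred at 8458 and 28758 bp also overlap the noncoding genes Gm38925 and Gm26666, in that order. The region over the upstream start, 145074600 to 145076399, had signals of 10.5, 14.6, 11.6 and 7.46. Control TAC was the highest library and BCAA-free TAC the lowest. TAC against sham was 1.40-fold higher (1.05 to 1.87) on the control diet and 1.56-fold lower (1.12 to 2.19) on the BCAA-free diet. After TAC the BCAA-free library was 1.96-fold lower (1.42 to 2.72) than the control library. By peak signal, 20, 38, 20 and 16, the ratio of TAC to sham on the BCAA-free diet was 0.8, a smaller change than the fold used for a call. A second annotated start lay in a CpG-island region centred 28758 bp into the gene, 145045400 to 145049399. There the signals were 10.8, 10.3, 11.7 and 6.24, so BCAA-free TAC was again the lowest and the other libraries lay close together. It was 1.87-fold lower (1.48 to 2.38) after TAC than after sham on the BCAA-free diet. The region centred at 34858 bp gave 6.76, 5.49, 7.62 and 4.13, 1.84-fold lower (1.28 to 2.68) in the same comparison. The weakest, at 8458 bp, had 18, 31, 13 and 7 tags. After TAC it was 4.16-fold lower on the BCAA-free diet, with a wide interval of 1.83 to 10.9, while for TAC over sham on that diet it was 1.70-fold lower with an interval, 0.637 to 4.92, that includes 1. BCAA-free TAC had the lowest signal in 4 of 4 Bcat1 regions, and the authors called none of them in that library. Of all regions 73.6% were called there, and 46.3% had an interval below 1 for the diets after TAC. BCAA-free TAC was also the lowest library at 3 of the 10 start regions, that of Bcat1 included. These 4 regions belong to 1 gene and share the same library.

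Signal of other cell types moved in the same comparison. The summed start-region signal of 10 fibroblast markers was 129, 121, 169 and 103, and 8 of 10 were at least 1.5-fold lower after TAC than after sham on the BCAA-free diet. Of all genes 5.16% were lower and 3.98% higher by that fold in this comparison. For 10 cardiomyocyte markers the sum was 114, 134, 118 and 171, with 6 of 10 at least 1.5-fold higher in that comparison. Endothelial markers summed to 175, 221, 138 and 175, and 4 of 10 were at least 1.5-fold higher there. Macrophage markers summed to 147, 165, 137 and 114, with the region that C1qa and C1qb share counted for each, and 0 of 10 passed the fold in either direction. Between the diets after TAC, 0 of 10 fibroblast markers passed the fold. Without BCAA, cardiomyocyte markers were higher at 4 of 10 and lower at 1, and endothelial markers lower at 1 of 10. Macrophage markers were lower at 3 of 10, among them C1qa and C1qb. Of all genes 1.27% were higher and 12.5% lower between these diets. No marker was at 0 in a library, the lowest value being 4.76 for a smooth muscle marker. In chromatin of the whole heart, fewer cells of a type and less mark per cell cannot be told apart, and the part of these shifts in the values of Bcat1 and of the regions below was not tested.

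Slc25a44 encodes the carrier that brings BCAA into the mitochondrion, a role known from mouse brown fat. The region over its start on chromosome 3, 88420800 to 88428399, is shared with Sema4a and had 10.03, 11.0, 10.7 and 8.43. BCAA-free TAC was the lowest library, 1.27-fold below BCAA-free sham (1.08 to 1.48) and 1.30-fold below control TAC (1.11 to 1.52). The region at the other end of the gene, shared with Pmf1, had 14.5, 15.9, 13.4 and 14.3 and did not follow it: BCAA-free TAC against sham was 1.06-fold (0.951 to 1.19).

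The dehydrogenase complex has a decarboxylase made of Bckdha and Bckdhb, a transacylase core, Dbt, and the dehydrogenase Dld, which the pyruvate and oxoglutarate complexes share. Dld had a single region, chromosome 12 from 31349200 to 31352199, which covers its start and no other gene. Its signals were 17.6, 27, 21.6 and 21.9, with control TAC well above the other libraries and control sham the lowest. TAC against sham was 1.54-fold higher (1.30 to 1.82) on the control diet and 1.02-fold (0.861 to 1.20) on the BCAA-free diet. Less the median of all regions, the log2 ratio on the control diet was 0.44, which is under a fold of 1.5. With the trend on mean signal removed it was 0.29. Regions with a promoter and a CpG island, like this one, had a median log2 ratio of 0.27 in that comparison. On the log2 scale the response was smaller on the BCAA-free diet by 0.60 (difference -0.60, interval -0.93 to -0.27). The same difference had a median of -0.31 over all genes. Between the sham libraries the BCAA-free diet was 1.23-fold higher (1.03 to 1.47), and after TAC it was 1.23-fold lower (1.05 to 1.44), a direction that turned when the trend on mean signal was removed (log2 ratio 0.04).

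Bckdhb, the beta subunit gene, needs care over where it starts. The table sets its start at 83948781 on chromosome 9, which no region covers, and the nearest region assigned to it is centred 18318 bp further in. The upstream RefSeq start at 83925137 lies 23644 bp before that point, inside a CpG-island region at 83924000 to 83926799 to which the table assigns no gene. This region was looked up after the values were seen and stands outside the 28. In all, 6813 regions have no gene, and 684 of them, 10.04%, hold a RefSeq start. Signals at the upstream start were 8.11, 12.5, 11.6 and 10.1, with control sham the lowest and control TAC the highest. Control TAC was also the highest library in the median over all genes, at 13.5, 16.2, 13.6 and 13.2. TAC against sham was 1.54-fold higher (1.19 to 2.00) on the control diet and 1.15-fold lower (0.896 to 1.47) on the BCAA-free diet. The difference in response was -0.82 (-1.32 to -0.32) on the log2 scale. Over all genes the median of this difference was -0.31, and 38% of all regions had an interval below 0. For TAC against sham on the control diet, regions with a CpG island and no promoter had a median log2 ratio of 0.25. Diets in sham differed by 1.43-fold (1.10 to 1.86), BCAA-free being higher, though by peak signal the difference was 1.09-fold.

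The region 18 kb into Bckdhb behaved otherwise. It runs from 83961200 to 83972999, holds neither a promoter nor a CpG island, and had signals of 4.24, 4.09, 6.34 and 10.3. Both control-diet libraries lay together, and BCAA-free TAC stood above the other 3. The authors called it only in the BCAA-free libraries. BCAA-free TAC was 2.52-fold higher (2.15 to 2.97) than control TAC and 1.63-fold higher (1.42 to 1.87) than BCAA-free sham. Of all regions 99.8% had a lower ratio in the first of these comparisons. Peak values of 26, 13, 23 and 50 set BCAA-free TAC apart too, but by peak the sham diets differed by 1.13-fold in the other direction.

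Further into Bckdhb lay 5 more regions without promoter or CpG island. In 4 of them both TAC libraries were below both sham libraries and BCAA-free sham was the highest. The strongest of the 6 regions assigned to the gene, 13199 bp long and centred 162218 bp in, had 9.10, 6.69, 11.5 and 6.94. TAC was lower there by 1.36-fold (1.19 to 1.55) on the control diet and by 1.65-fold (1.46 to 1.87) on the BCAA-free diet. At 119618 bp, with 27 to 65 tags, the signals were 5.92, 3.02, 7.32 and 3.52. TAC was lower by 1.96-fold (1.21 to 3.25) on the control diet and by 2.08-fold (1.34 to 3.30) on the BCAA-free diet, a difference between diets of -0.09 (-0.99 to 0.82) on the log2 scale. The region at 148718 bp, called like the previous one in BCAA-free sham alone, had 4.26, 3.19, 7.08 and 3.53. TAC was lower by 1.34-fold (0.907 to 1.98) on the control diet, an interval that includes 1, and by 2.01-fold (1.43 to 2.84) on the BCAA-free diet. At 83618 bp the signals were 6.38, 3.96, 6.62 and 5.48, with TAC lower by 1.61-fold (1.17 to 2.24) on the control diet and by 1.21-fold (0.902 to 1.62) on the BCAA-free diet. The region at 134918 bp differed from these 4. It had 7.64, 6.71, 6.31 and 9.75, and TAC was 1.55-fold higher (1.21 to 1.99) than sham without BCAA, as at the region 18 kb in.

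**Figure D2:**
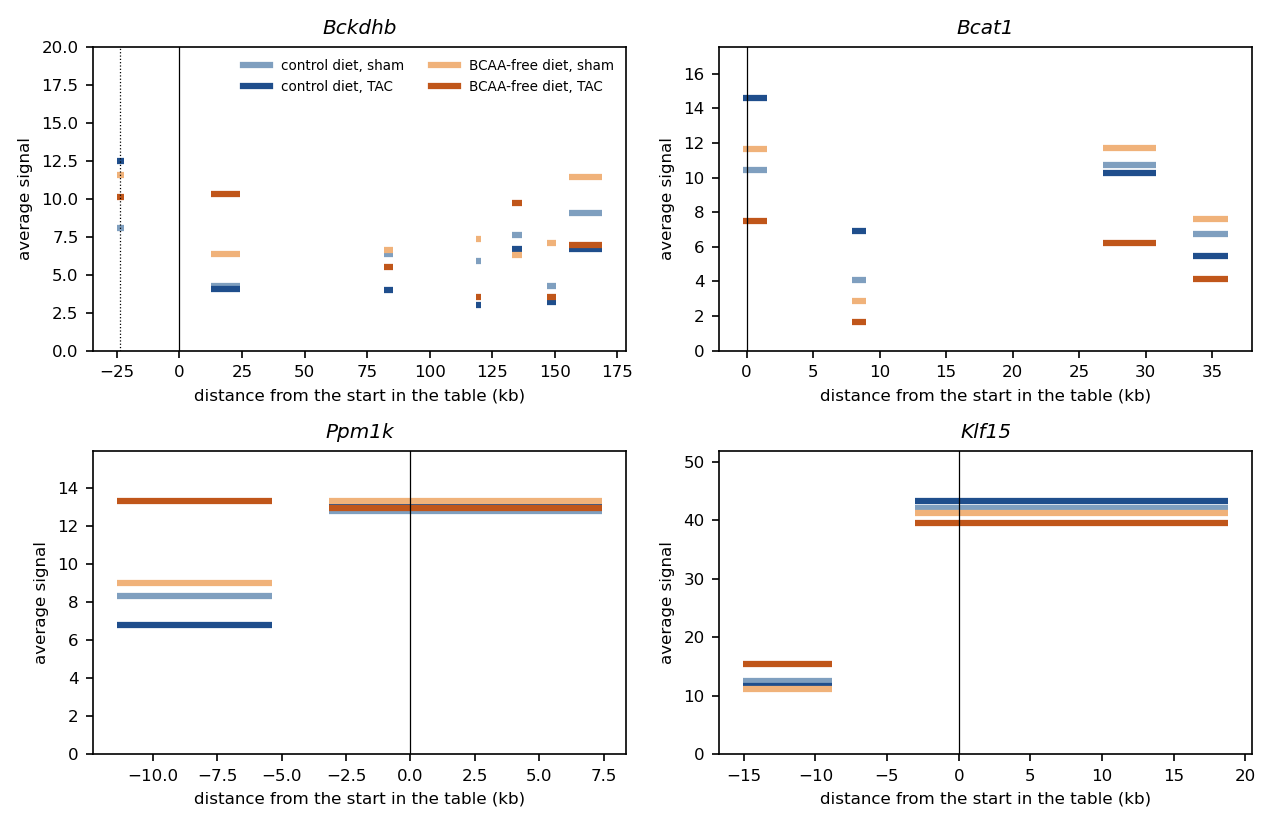
Average signal (coverage per base) of each region along Bckdhb, Bcat1, Ppm1k and Klf15 against distance in kb from the start that the table uses, with positive values into the gene; each bar spans its region's length, colours are the 4 single libraries, and the dotted line marks the upstream RefSeq start of Bckdhb. BCAA-free TAC reaches 10.3 at the Bckdhb region 18318 bp in and 13.3 upstream of Ppm1k, and is lowest in all 4 Bcat1 regions.

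Dbt encodes the transacylase. Its start lay in a region on chromosome 3 from 116511800 to 116514999, shared with Rtca, with signals of 10.7, 14.0, 15.7 and 15.3. Control sham was the lowest, and the other libraries lay closer together. In sham the BCAA-free diet was 1.46-fold higher (1.19 to 1.81), and on the control diet TAC was 1.31-fold higher (1.05 to 1.63). A CpG-island region 5680 bp upstream, over Rtca, had 12.6, 13.1, 12.0 and 10.8, and the sham diets there differed by 1.05-fold in the other direction, with an interval of 0.846 to 1.30.

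Bckdha, the alpha subunit gene that the kinase and phosphatase act on, had its start in a region on chromosome 7 from 25654000 to 25660799, shared with Exosc5 and Tmem91. The signals were 17.5, 21.2, 18.9 and 19.6, with a spread of 1.21-fold from lowest to highest. That spread was TAC over sham on the control diet (1.08 to 1.36), and on the BCAA-free diet the ratio was 1.04 (0.923 to 1.16). A weak region inside the gene had 6.84, 6.64, 6.45 and 6.62. The region over its far end, 25623000 to 25635199, is shared with Gm7092, Atp5sl and B3gnt8 and had 19.6, 19.3, 19.2 and 14.4. It was 1.33-fold lower (1.21 to 1.46) after TAC than after sham on the BCAA-free diet and holds 2 promoters, so it cannot be read as Bckdha alone. The fourth region, centred 39162 bp away, does not overlap the gene.

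Of the regulators of the complex, Bckdk encodes the kinase that turns it off. The region over its start on chromosome 7, 127903800 to 127906399, is shared with Vkorc1 and Kat8 and had 19.8, 21.5, 17.8 and 17.9. Both BCAA-free libraries lay below both control-diet libraries, but the intervals of the diet ratios, 0.740 to 1.09 in sham and 0.691 to 1.01 after TAC, include 1. A region 8374 bp upstream, over Vkorc1, had 12.0, 14.3, 11.5 and 9.0, and after TAC it was 1.58-fold lower (1.31 to 1.91) on the BCAA-free diet. The strongest region assigned to Bckdk lay past its end, over Kat8, centred 7926 bp from the start. It had 18.3, 20.6, 20.8 and 19.4 and did not share the diet order of the start. BCAA-free over control was 1.13 (0.967 to 1.33) in sham and 0.943 (0.806 to 1.10) after TAC.

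Ppm1k encodes the phosphatase that turns the complex on. At its start, chromosome 6 from 57528000 to 57538599, the signals were 12.8, 13.0, 13.3 and 13.0, which is the narrowest spread of the 28 regions at 1.04-fold. About 630 tags or fewer stood behind each value, and the intervals of all 4 ratios reach no further than 0.870 and 1.16. The region centred 8373 bp upstream, 57540800 to 57546799, differed. It overlaps no RefSeq gene, is assigned to Ppm1k alone and had 8.32, 6.80, 9.04 and 13.3. By the authors' count it holds 1 promoter and no CpG island. BCAA-free TAC was the highest library and control TAC the lowest, the only library in which it was not called. The ratio of TAC to sham was 0.817 (0.668 to 0.999) on the control diet and 1.48 (1.249 to 1.74) on the BCAA-free diet. After TAC the BCAA-free library was 1.96-fold higher (1.64 to 2.36), and 2.68-fold by peak signal.

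Klf15 had the strongest mark of the set. Its start region on chromosome 6, 90459600 to 90481399, spans 21799 bp and ranked 39 of 30965 by mean signal. The signals were 42.1, 43.3, 41.3 and 39.6, within 1.09-fold of each other. With 3858 to 4215 tags per library the interval of TAC against sham was 0.985 to 1.07 on the control diet and 0.918 to 1.00 on the BCAA-free diet. After TAC the BCAA-free library was 1.09-fold lower (1.05 to 1.14). This direction turned after centring on all regions (log2 ratio 0.07) and once the signal-dependent trend was taken out (0.25). Peak values were 240, 280, 260 and 206, a difference after TAC of 1.36-fold. The region 11927 bp upstream, 90447600 to 90453799, overlaps no gene and had 12.5, 11.7, 11.1 and 15.4. There TAC was 1.38-fold higher (1.19 to 1.61) than sham on the BCAA-free diet, and on the control diet the ratio was 0.938 (0.804 to 1.09).

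**Figure D3:**
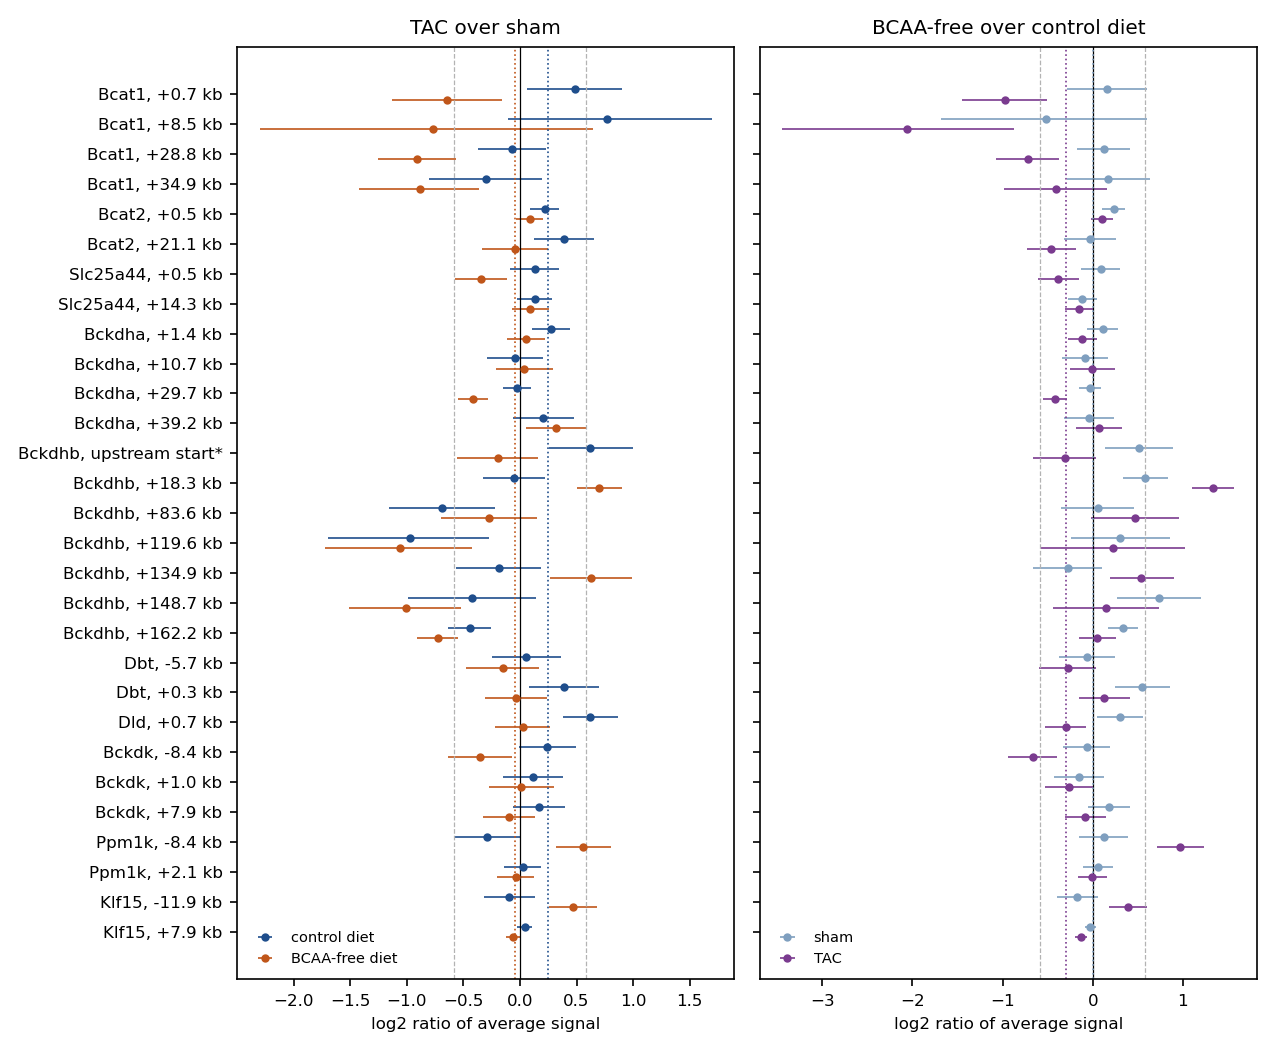
Log2 ratios of average signal at the 28 regions and at the unassigned region over the upstream Bckdhb start (asterisk), TAC over sham on each diet at left and BCAA-free over control diet in sham and TAC at right; bars are 95% counting intervals, dotted lines the medians over all genes, dashed lines a fold of 1.5. Dld and the upstream Bckdhb start lie at 1.54-fold for TAC on the control diet, and the Bckdhb region 18 kb in lies farthest right for the diets after TAC at 2.52-fold.

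Counted over the genes at their start regions, TAC on the control diet went with signal above sham in 9 of 10, against 86.8% of all genes. The count at least 1.5-fold higher was 1, Dld, where 6.22% of all genes were, and 0 were lower, where 0.881% were. On the BCAA-free diet 1 gene was higher, Bckdhb by its intragenic region (all genes 3.98%), and 1 lower, Bcat1 (all genes 5.16%). In sham 0 genes passed the fold between diets in either direction, against 1.33% of all genes higher and 1.7% lower. After TAC, BCAA-free against control was higher at 1 gene, again Bckdhb (all genes 1.27%), and lower at 1, again Bcat1 (all genes 12.5%). With Bckdhb taken at its upstream start, the counts higher became 2, 0, 0 and 0. The median log2 ratios were 0.16, -0.01, 0.12 and -0.12 in the order of the comparisons. Set against all genes these lay -0.09, 0.03, 0.12 and 0.17 from the median. Each comparison shares a library with others, so these 4 medians are not independent.

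By region, TAC on the control diet gave 2 of 28 at least 1.5-fold higher (all regions 7.82%) and 2 lower (all regions 3.4%). On the BCAA-free diet 2 were higher (all regions 10.7%) and 7 lower (all regions 11.7%). Those 7 were all 4 regions of Bcat1, of which the weakest has an interval that includes 1, and 3 of Bckdhb. Between the sham libraries 1 was higher (all regions 4.05%) and 0 lower (all regions 4.14%). In that comparison the interval lay above 1 at 6 regions and below 1 at 0, against 18.3% and 17.9% of all regions. After TAC 2 were higher on the BCAA-free diet (all regions 5.21%) and 4 lower (all regions 12.6%).

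The response to TAC was larger on the BCAA-free diet, with an interval above 0, at 4 of 28 regions, or 14.3%, and smaller at 10, or 35.7%. Over all regions the shares were 14.8% and 38%, so these counts are near the background. The 4 were the Bckdhb regions at 18318 and 134918 bp and the regions upstream of Ppm1k and Klf15, with log2 differences of 0.76 (0.42 to 1.09), 0.82 (0.31 to 1.32), 0.85 (0.48 to 1.22) and 0.56 (0.26 to 0.86). None of them covers a start of its gene or a CpG island, though the region upstream of Ppm1k holds a promoter by the authors' count. At the start regions of Ppm1k and Klf15 the same difference was -0.06 (-0.29 to 0.17) and -0.10 (-0.19 to -0.01).

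The steps that follow the complex, a list of 17 genes from Ivd to Mmut, had medians of 0.24, -0.01, 0.07 and -0.13, and 0 of 17 passed a fold of 1.5 in any comparison. Among 14 genes of the sister 2-oxoacid dehydrogenase complexes with their kinases and phosphatases, the medians were 0.14, 0.17, -0.01 and -0.05. The gene past the fold there was Pdk3, a pyruvate dehydrogenase kinase, at 8.13, 15.1, 9.65 and 9.80, with control TAC the highest. Pdk3 was 1.86-fold higher (1.41 to 2.47) in TAC than in sham on the control diet. The median start-region signal of all genes was 13.5, 16.2, 13.6 and 13.2, so a highest control TAC is not particular to Pdk3 or Dld. Carriers of BCAA at the cell surface had 5 genes. Among them Slc7a5, at a region shared with BC048644 and Car5a, was 1.61-fold higher (1.48 to 1.75) in TAC on the control diet. Slc43a1 was 1.90-fold lower (1.53 to 2.39) in TAC on the BCAA-free diet, at a region shared with Smtnl1 and Timm10. That region is centred -5909 bp from the Slc43a1 start and does not reach it. In the list of 5 transcriptional regulators tied to these genes, the coactivator Ppargc1a had 9.26, 8.34, 8.23 and 13.3 and Ppara, a receptor for fatty acids, 7.44, 11.0, 6.52 and 10.7. On the BCAA-free diet TAC was 1.62-fold (1.505 to 1.74) and 1.64-fold higher (1.34 to 2.01) at these. On the control diet the ratio was 0.901 (0.833 to 0.973) at Ppargc1a and 1.47 (1.21 to 1.79) at Ppara. After TAC Ppargc1a was 1.60-fold higher (1.48 to 1.71) without BCAA, while the ratio at Ppara was 0.977 (0.819 to 1.16). The Ppara region is centred 20135 bp from the start and does not reach it.

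**Figure D4:**
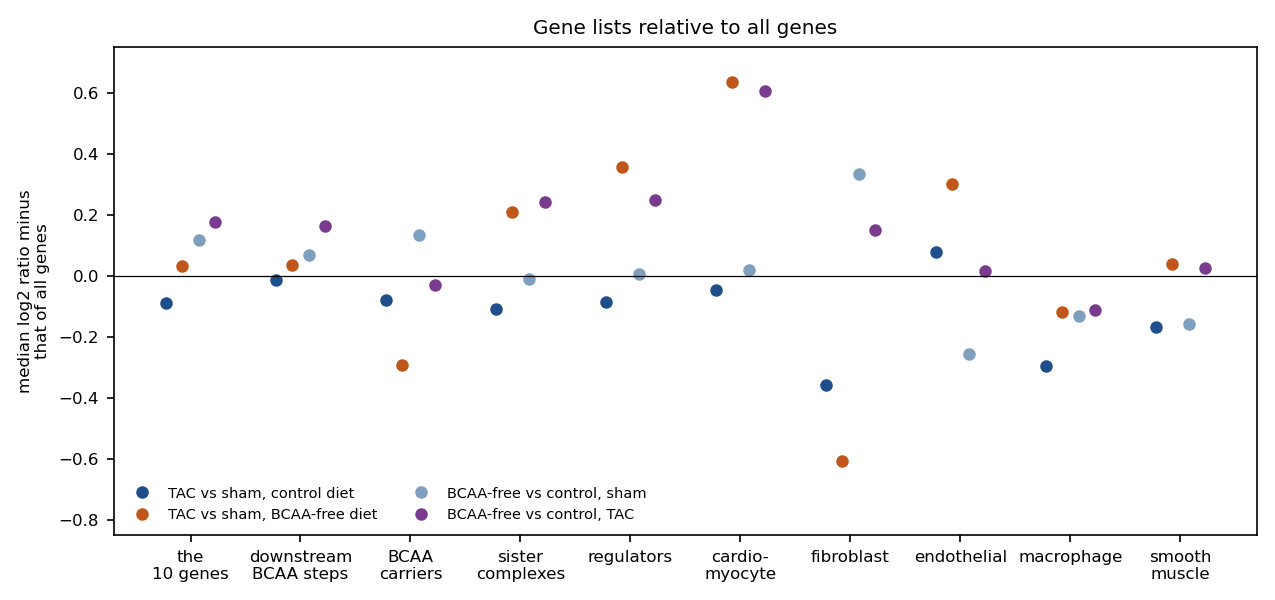
Median log2 ratio of each gene list at start regions minus that of all genes, for the 4 comparisons (colours); each point is 1 ratio of 2 pooled libraries with no error bar, since there are no replicates. The 10 genes lie between -0.09 and 0.17, inside the span from -0.61 for fibroblast to 0.63 for cardiomyocyte markers.

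Among the regions nearest to the start that the table uses, the widest range across the 4 libraries was that of the Bckdhb region 18318 bp in, 1.15 on the log2 scale. The 5 genes whose centred log2 signals were nearest to it, by Euclidean distance over the 4 libraries and with a mean signal of at least 5, were Zp2 (distance 0.118), Fgf20 (0.217), Gm20740 (0.263), Tinag (0.272) and Myocd (0.281). Zp2 had 4.85, 4.91, 7.03 and 10.7, and the broad Myocd region had 8.30, 9.09, 10.1 and 17.8. With 4 single libraries such likeness is a description of these pools.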

How the data were processed

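H3K23Pr libraries from 4 pools of mouse hearts were analysed from the deposited table of merged regions; the input library has no column there, so enrichment over input is not analysed here. Active Motif carried out the immunoprecipitation and sequencing steps, per the labels' protocols; the submitters' processing notes name BWA, MACS2 and mm10 without roles. Per the file headers each region has an average signal and a peak signal (coverage) in every library, called flags, and counts of promoters, CpG islands and genes that the authors assigned. The authors' deposited log2 ratios were not used. No header states how libraries were scaled. Tags were derived as average signal times length over 224, the divisor that the deposited maximum tag numbers imply; they sum to 16940648, 18877107, 16960160 and 17097867.

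Each gene was represented by the region nearest to its start, since the strongest region can belong to a neighbour. List medians use log2 ratios with a pseudocount of 1, which understates changes of weak regions. Folds are plain ratios with exact (Clopper-Pearson) 95% intervals from tags; differences between diets have normal-approximation intervals. With 1 library per group no test was run, and intervals cover counting error only. The interval calculation was run on simulated Poisson tags, which hold no variation between hearts or in library scaling. That run checks the arithmetic for counting error only. Members and gene lists were chosen with earlier results of these data known. Text names every member, list genes past a fold of 1.5, and the 5 nearest patterns. Python 3.11.15, pandas 2.3.3, NumPy 2.4.6, SciPy 1.17.1, statsmodels 0.14.6 and matplotlib 3.10.9 were used.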

Additional observations from a re-analysis of the deposited data

Results flagged for a closer look

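At the region over the upstream start of Bcat1 the TAC response ran in opposite directions on the 2 diets, higher than sham on the control diet and lower on the BCAA-free diet. The log2 difference between diets was -1.12. The region 8373 bp upstream of Ppm1k had the reverse pattern, with a difference of 0.85, and its interval on the control diet ended at 0.999. Each diet has 1 library per surgery, so the difference was not tested against replicates. Opposite directions with both counting intervals away from 1 occurred at 2946 of 30965 regions, or 9.51%, and at 2 of the 28 regions here.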

How the results depend on the processing

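At their start regions, called genes kept their direction by peak signal, after centring and once the signal-dependent trend was taken out. With its strongest region in place of the nearest, Bckdhb was instead 1.65-fold lower for TAC on the BCAA-free diet. The median log2 ratio for TAC over sham on the control diet, 0.16, became 0.00732 after centring on all regions and -0.031 after removing the trend on mean signal. The diet median after TAC, -0.12, became -0.39 by peak signal and 0.21 with the trend removed, and was 0.08 after centring. For TAC on the control diet the count higher, 1, was 2 by peak signal, 0 centred, 0 with the trend removed, 3 at a looser fold, 0 at a fold of 2 and 2 with Bckdhb at its upstream start; the count lower, 0, was 1 by peak signal. For TAC on the BCAA-free diet, and likewise for the diets after TAC, the count higher, 1, fell to 0 with the strongest region per gene, the length-weighted mean, start regions at or above the median signal, regions that cover a start, and the upstream Bckdhb start; the former was also 0 at a fold of 2. The count lower for TAC on the BCAA-free diet, 1, was 0 by peak signal, 2 with the strongest region, 2 at the looser fold and 0 at 2-fold. For the diets after TAC, the count lower, 1, was 2 by peak signal, 2 at the looser fold and 0 at 2-fold. In sham the count higher, 0, was 1 centred, 1 with the trend removed and 2 at the looser fold. The cause was not tested. Single-gene ratios left their counting interval in 20 of 40 cases by peak signal, 8 centred and 12 with the trend removed. Pseudocounts of 0.1 and 5 and start regions assigned to no other gene moved none of these values past the limits used. Even so, over the 5 genes whose start region is assigned to no other gene, the median for TAC on the control diet was 0.04 rather than 0.16. The settings on regions over a start, on the upstream start and on regions of no other gene were chosen after seeing the data. No paired analysis was possible because each group has 1 library. Limits are the single library per group, the unstated scaling between libraries and, in weak regions, as few as 7 tags.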
